A study of Mus musculus with 8 samples.

Results

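E proteins are transcription factors of the basic helix-loop-helix class that recognize short DNA words called E-boxes (CANNTG) in pairs, and they act early in the commitment of bone marrow progenitors to the lymphoid lineages. E2A denotes the proteins encoded by Tcf3, and HEB is the protein encoded by Tcf12. The best known genes that depend on E2A are B-lineage factors and recombination genes. Described here are 10 genes less often discussed in that setting: Arpp21, Fbp1, Fgf13, Sdc4, AA467197, Sqor, Cdk19, Arhgef3, Nabp1 and Rab11fip5. They were selected, among 18193 genes with a probe set of their own, on a measured value: each read lower on every E2A knockout array than on both wild-type arrays. That comparison is therefore a description and has no test. All 10 passed the level filter and were among the 11957 genes tested. They have 24 probe sets, of which 16 passed the filter. The same order of arrays held for 1846 tested genes (15.4%), so it does not by itself single out these 10, and they were picked from among the larger differences.

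The groups were LY6D- common lymphoid progenitors of E2A-KO mice (4 arrays), HEB-KO mice (2 arrays) and wild-type (WT) mice (2 arrays), all C57BL/6, aged 10 to 13 weeks. The bone marrow cells were sorted as LIN- FLT3+ CD127+ LY6D-, a stage that can still give B, T and other lymphoid cells. Each sort pooled several marrows, at least 2 sorts were made for each genotype, and the RNA was amplified in 2 rounds before hybridization to an Affymetrix array. P-values therefore describe how far arrays of such pools vary, not how far mice do, and it is not stated whether each of the 4 E2A-KO arrays had its own sort. How the knockout alleles were made is not stated either.

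Every array had a median intensity between 14.14 and 15.41, and no 2 arrays held identical values. The targeted genes followed the labels at their brightest probe sets. Tcf3 read 3.71 to 4.28 (log2 intensity) on the 4 E2A-KO arrays, 8.57 and 8.44 on the HEB-KO arrays, and 7.76 and 7.98 on the WT arrays. Tcf12 read 7.10 and 6.49 on the HEB-KO arrays, against 8.85 and 8.76 on the WT arrays. On the E2A-KO arrays Tcf12 read 8.52 to 8.64, slightly below both WT arrays. Of the markers of the sort, Flt3 read 10.12 to 11.05 on all 8 arrays, whereas Ly6d ranged from 3.53 to 7.83. Il7r, which encodes CD127, read 7.89 to 9.04 on the E2A-KO arrays, 10.88 and 10.50 on the HEB-KO arrays, and 10.51 and 10.91 on the WT arrays. The mean of 8 markers of the sorted progenitors was 7.20 to 8.01 on E2A-KO arrays, 9.61 and 8.47 on HEB-KO arrays, and 8.59 and 9.78 on WT arrays. Kit, at 3.98 to 5.38 on E2A-KO arrays, and Cd93, at 10.16 to 10.26, were below all HEB-KO and WT arrays (5.77 or more for Kit, 11.42 or more for Cd93). In a bulk sample, fewer cells that express a gene and less RNA in each cell cannot be told apart.

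The windows from 250 bases before to 50 bases after an annotated transcript start (RefSeq, GRCm38.p6) were searched for E-boxes on both strands. The table held 23 such windows for 9 of the 10 genes, several of them overlapping. Windows of 3 genes are printed 5′ to 3′ on the gene's own strand, because these 3 had the largest differences of all 10 and because each holds the word CAGGTG or its reverse complement CACCTG. Capitals mark every E-box. Fbp1 lies on the minus strand (chr13:62888233-62888532), AA467197 on the plus strand (chr2:122637637-122637936), and the Arpp21 window, 1 of 9 for that gene, on the minus strand (chr9:112217302-112217601). Of the 9 Arpp21 windows, the one printed holds the most CAGGTG words, 3 on either strand.
Fbp1: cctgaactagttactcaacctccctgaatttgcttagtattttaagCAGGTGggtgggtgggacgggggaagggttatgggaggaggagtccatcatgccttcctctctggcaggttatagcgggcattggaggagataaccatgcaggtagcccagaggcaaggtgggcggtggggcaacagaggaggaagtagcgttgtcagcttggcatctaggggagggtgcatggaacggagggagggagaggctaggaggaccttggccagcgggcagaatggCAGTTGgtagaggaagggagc
AA467197: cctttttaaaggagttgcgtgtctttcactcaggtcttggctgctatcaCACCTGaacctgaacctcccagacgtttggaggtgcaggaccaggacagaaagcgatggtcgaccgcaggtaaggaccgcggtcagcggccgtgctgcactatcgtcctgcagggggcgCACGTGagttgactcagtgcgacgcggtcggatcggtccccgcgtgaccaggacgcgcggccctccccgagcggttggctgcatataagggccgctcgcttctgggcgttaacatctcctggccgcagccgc
Arpp21: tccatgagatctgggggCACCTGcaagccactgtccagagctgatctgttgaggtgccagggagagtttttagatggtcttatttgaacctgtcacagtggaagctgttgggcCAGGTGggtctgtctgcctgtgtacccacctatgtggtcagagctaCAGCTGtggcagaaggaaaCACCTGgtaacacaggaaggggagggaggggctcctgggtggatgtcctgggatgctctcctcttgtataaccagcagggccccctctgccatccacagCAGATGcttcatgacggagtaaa
The first E-box of the Fbp1 window began at position -204 from the start and that of the AA467197 window at -201. The Arpp21 window holds 5 E-boxes. Some E-box was present in 19 of the 23 windows, and in 72.3% of all 32851 windows in the table. CAGGTG, read on either strand, was present in 9 of the 23 windows, belonging to 4 of the 9 genes (Arpp21, Fbp1, AA467197 and Arhgef3), and in 20.2% of all windows. Of all genes in the table, 22.6% had CAGGTG in any window. The 9 genes had more windows each (23 in all) than genes of the table at large (32851 windows for 27025 genes). Their share is therefore not directly comparable. CAGCTG was present in 6 of 23 windows, against 16.3% of all windows. Arpp21 alone contributed 6 of the 9 windows with CAGGTG and 3 of the 6 with CAGCTG. A match describes these letters and not a bound site.

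Arpp21, also known as a cAMP-regulated phosphoprotein and RNA-binding protein of neurons, had one of the widest contrasts between genotypes. It lies on chromosome 9 (chr9:112065091-112236288). At its brightest probe set it read 5.69, 5.38, 5.35 and 3.84 on the E2A-KO arrays, 9.30 and 8.21 on the HEB-KO arrays, and 9.06 and 9.30 on the WT arrays (log2 intensity). The 4 E2A-KO arrays lay at least 2.52 below either HEB-KO array and 3.37 below either WT array, while the HEB-KO and WT arrays overlapped. E2A-KO cells averaged 5.07 ± 0.83 (SD, n = 4), HEB-KO cells 8.76 ± 0.77 (n = 2) and WT cells 9.18 ± 0.17 (n = 2). E2A-KO cells were thus lower than WT by 17.3-fold, a log2 difference of -4.11 (95% interval -5.27 to -2.96). Intervals of the comparison between E2A-KO and WT, here and below, take no account of the choice of the genes and test nothing.

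The other probe sets of Arpp21 showed more than one pattern. The second brightest read 3.71, 2.74, 2.94 and 3.64 on E2A-KO arrays, 6.05 and 5.22 on HEB-KO arrays, and 7.40 and 6.94 on WT arrays. There the 3 genotypes did not overlap, and the HEB-KO cells were in between, with a difference from WT of -1.53. The third read 2.74 to 3.76 on E2A-KO arrays, 3.53 and 3.55 on HEB-KO arrays, and 5.22 and 4.68 on WT arrays. At this probe set the E2A-KO and HEB-KO arrays overlapped, and both differed from WT, by -1.71 in E2A-KO and -1.41 in HEB-KO cells. The remaining pair of probe sets did not pass the filter. Which transcripts each probe set reads was not examined.

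**Figure D1:**
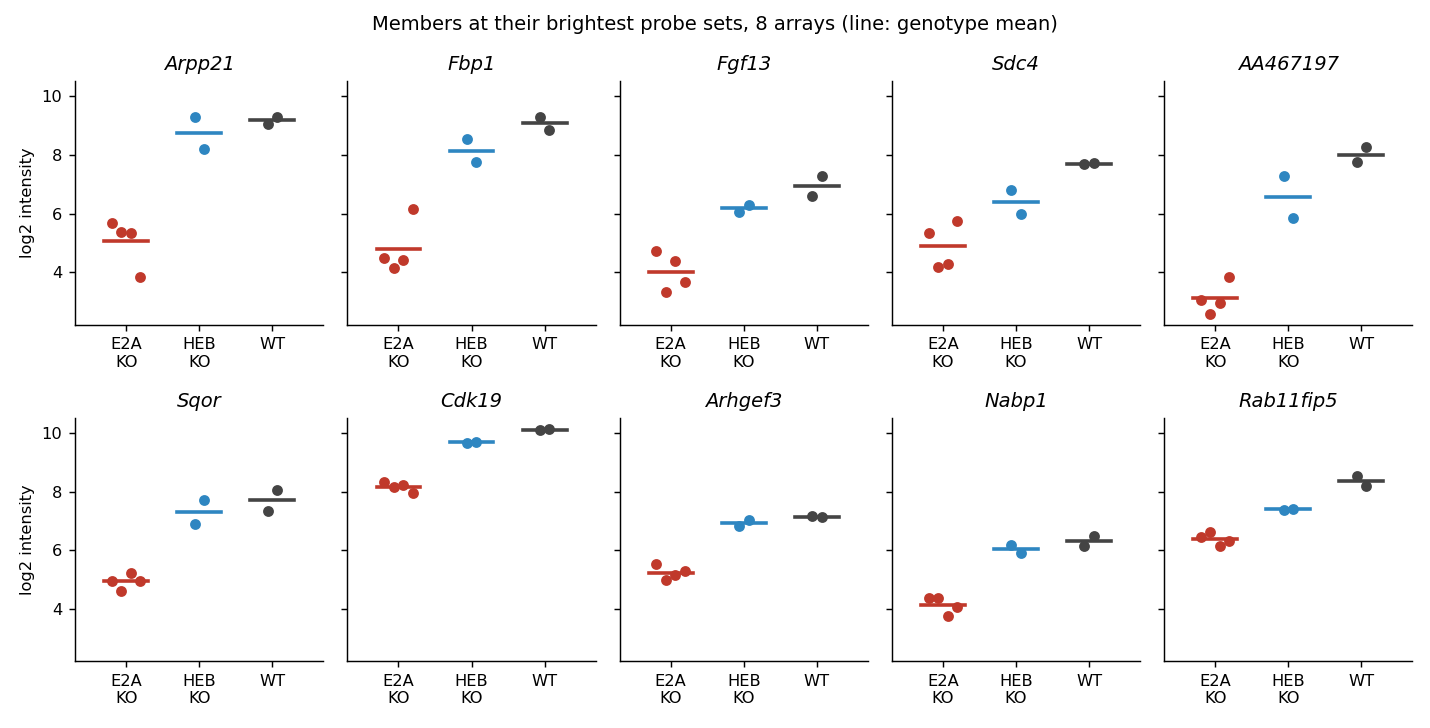
Log2 intensity (vertical axis) of the 10 genes at their brightest probe sets on each array, with E2A-KO (4 points), HEB-KO (2) and WT (2) side by side and a line at the mean of each genotype. In every panel all 4 E2A-KO points lie below all HEB-KO and WT points, with gaps to WT that run from 1.57 for Rab11fip5 to 3.92 for AA467197.

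Fgf13 encodes an FGF homologous factor, an intracellular relative of the fibroblast growth factors that binds voltage-gated sodium channels rather than FGF receptors. It lies at chrX:59062139-59585572. Its brightest probe set read 4.74, 3.32, 4.38 and 3.67 on E2A-KO arrays, 6.07 and 6.30 on HEB-KO arrays, and 6.60 and 7.27 on WT arrays. The genotypes did not overlap, and the HEB-KO arrays stood nearer to WT than to E2A-KO. E2A-KO cells averaged 4.03 ± 0.65 (n = 4), HEB-KO cells 6.18 ± 0.16 (n = 2) and WT cells 6.93 ± 0.48 (n = 2), which placed E2A-KO cells 7.49-fold below WT. Its second probe set was dim on all arrays and differed by 0.30 in E2A-KO cells.

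The 3 metabolic genes encode fructose-1,6-bisphosphatase (Fbp1, an enzyme of gluconeogenesis), sulfide:quinone oxidoreductase (Sqor, which oxidizes hydrogen sulfide in mitochondria) and a small mitochondrial protein related to the cytochrome oxidase subunit Ndufa4 (AA467197, the mouse counterpart of human C15orf48). Fbp1 (chr13:62864753-62888298) read 4.50, 4.15, 4.43 and 6.16 on E2A-KO arrays, 8.53 and 7.75 on HEB-KO arrays, and 9.31 and 8.85 on WT arrays. Its genotypes did not overlap, and array 4 of the E2A-KO group stood above the other 3. E2A-KO cells averaged 4.81 ± 0.91 (n = 4), HEB-KO cells 8.14 ± 0.55 (n = 2) and WT cells 9.08 ± 0.33 (n = 2), which put E2A-KO cells 19.2-fold below WT, a log2 difference of -4.27 (95% interval -5.46 to -3.07).

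AA467197 had the largest difference of the 10. It read 3.05, 2.60, 2.96 and 3.85 on E2A-KO arrays, 7.28 and 5.85 on HEB-KO arrays, and 7.77 and 8.25 on WT arrays. On every E2A-KO array it was below that array's median, no higher than the percentile 48.3 of all probe sets, whereas on the WT arrays it was at or above the percentile 89.2. E2A-KO cells averaged 3.12 ± 0.53 (n = 4), HEB-KO cells 6.56 ± 1.01 (n = 2) and WT cells 8.01 ± 0.34 (n = 2). The log2 difference between E2A-KO and WT, -4.89 (95% interval -5.91 to -3.88), was rank 2 from the lowest among the 11957 tested genes. Values this near the floor of the array can understate a difference.

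Sqor read 4.95, 4.64, 5.22 and 4.97 on E2A-KO arrays, 6.91 and 7.71 on HEB-KO arrays, and 7.35 and 8.06 on WT arrays. Here the HEB-KO and WT arrays overlapped, and the E2A-KO arrays lay close together, with a range of 0.58. E2A-KO cells averaged 4.94 ± 0.24 (n = 4), HEB-KO cells 7.31 ± 0.57 (n = 2) and WT cells 7.71 ± 0.50 (n = 2), with E2A-KO cells 6.79-fold below WT. AA467197 and Sqor are close neighbours on chromosome 2 (chr2:122637887-122641076 and chr2:122765327-122809553), 124.25 kb apart with 4 annotated genes between them. Of these 4, Slc30a4, a zinc transporter, read 5.62, 5.09, 6.11 and 5.64 on E2A-KO arrays, 7.21 and 6.54 on HEB-KO arrays, and 6.32 and 7.43 on WT arrays. Its difference between E2A-KO and WT cells was -1.26 and did not pass the test (limma, adjusted p = 0.215). Bloc1s6, the other tested gene of the 4, differed by -0.71 (limma, adjusted p = 0.410).

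Sdc4, Rab11fip5 and Arhgef3 encode proteins of the cell surface, of membrane recycling and of the cytoskeleton. Sdc4 (chr2:164424247-164443188) is a syndecan, a transmembrane heparan sulfate proteoglycan. It read 5.34, 4.18, 4.30 and 5.75 on E2A-KO arrays, 6.79 and 6.00 on HEB-KO arrays, and 7.70 and 7.71 on WT arrays. The genotypes were apart, but the nearest E2A-KO and HEB-KO arrays by no more than 0.25. E2A-KO cells averaged 4.90 ± 0.77 (n = 4), HEB-KO cells 6.40 ± 0.56 (n = 2) and WT cells 7.71 ± 0.01 (n = 2). The second probe set of Sdc4 read 5.11, 4.28, 4.08 and 5.66 on E2A-KO arrays, 5.10 and 4.40 on HEB-KO arrays, and 6.21 and 7.20 on WT arrays. There both knockouts covered one range, with differences from WT of -1.92 in E2A-KO and -1.96 in HEB-KO cells.

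Rab11fip5 (chr6:85334962-85374684) encodes an effector of the recycling GTPase Rab11. It read 6.47, 6.61, 6.16 and 6.32 on E2A-KO arrays, 7.38 and 7.42 on HEB-KO arrays, and 8.52 and 8.19 on WT arrays. The 3 genotypes were well apart, with HEB-KO about midway. E2A-KO cells averaged 6.39 ± 0.19 (n = 4), HEB-KO cells 7.40 ± 0.03 (n = 2) and WT cells 8.35 ± 0.23 (n = 2), and E2A-KO cells were 3.89-fold below WT. This probe set bears the suffix that Affymetrix gives to probe sets shared by several transcripts, and the second one, of the same kind, differed by -0.06.

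Arhgef3 (chr14:27114461-27403916) encodes a guanine nucleotide exchange factor. It read 5.53, 4.996, 5.17 and 5.30 on E2A-KO arrays, 6.82 and 7.05 on HEB-KO arrays, and 7.17 and 7.13 on WT arrays. The HEB-KO arrays were close to the WT arrays without overlapping them, with a gap of 0.081. E2A-KO cells averaged 5.25 ± 0.22 (n = 4), HEB-KO cells 6.93 ± 0.16 (n = 2) and WT cells 7.15 ± 0.03 (n = 2), with E2A-KO cells 3.73-fold below WT.

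Cdk19 and Nabp1 act in the nucleus. Cdk19 (chr10:40349287-40483818) is a kinase of the Mediator complex, which links transcription factors to RNA polymerase. It read 8.34, 8.15, 8.22 and 7.96 on E2A-KO arrays, 9.66 and 9.70 on HEB-KO arrays, and 10.09 and 10.14 on WT arrays. Its arrays varied little within a genotype, and the 3 genotypes were apart. E2A-KO cells averaged 8.17 ± 0.16 (n = 4), HEB-KO cells 9.68 ± 0.03 (n = 2) and WT cells 10.12 ± 0.03 (n = 2), so E2A-KO cells were 3.85-fold below WT. Its second probe set had the same order, at 7.93, 7.85, 8.26 and 7.03 on E2A-KO arrays, 9.22 and 8.74 on HEB-KO arrays, and 9.79 and 9.78 on WT arrays.

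Nabp1 (chr1:51464968-51478475) encodes a single-stranded DNA binding protein of the SOSS complex, which takes part in DNA repair. It read 4.38, 4.37, 3.78 and 4.09 on E2A-KO arrays, 6.18 and 5.92 on HEB-KO arrays, and 6.16 and 6.49 on WT arrays. HEB-KO and WT arrays overlapped, and E2A-KO arrays stayed at least 1.54 below both. E2A-KO cells averaged 4.15 ± 0.29 (n = 4), HEB-KO cells 6.05 ± 0.18 (n = 2) and WT cells 6.33 ± 0.24 (n = 2), a 4.51-fold lower level in E2A-KO cells. None of its 5 other probe sets followed: their differences between E2A-KO and WT ran from -0.46 to 0.43, and 4 of the 5 were under the filter.

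**Figure D2:**
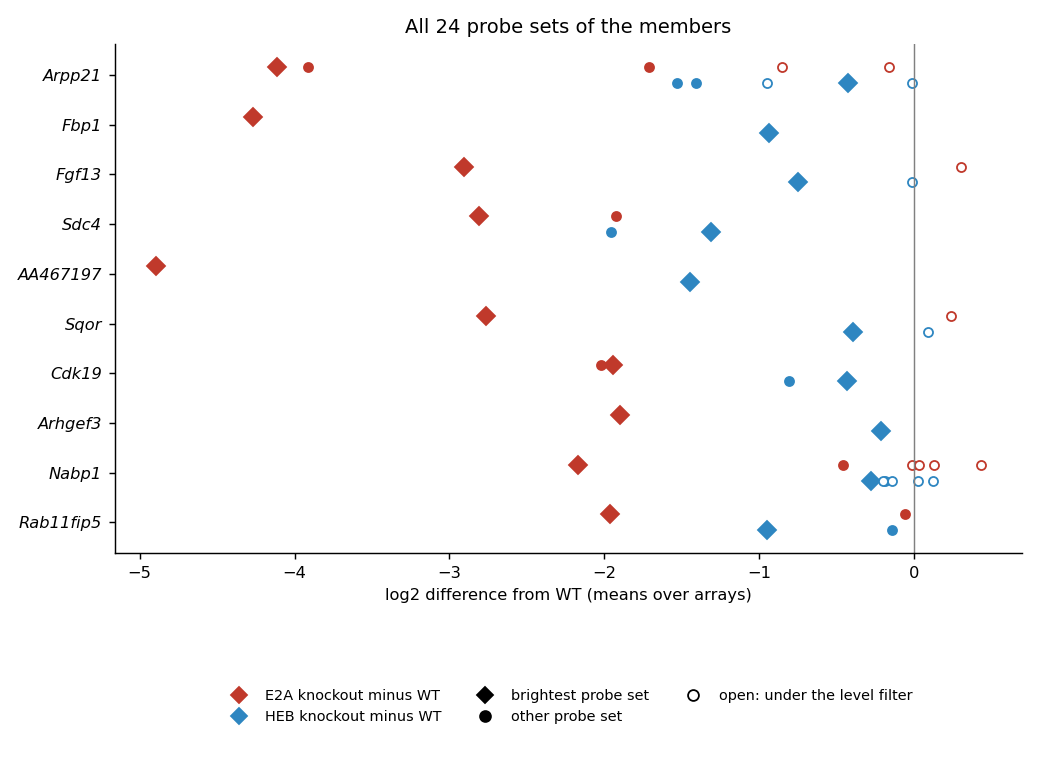
Log2 difference from WT (horizontal axis) of E2A-KO (red) and HEB-KO (blue) means at all 24 probe sets of the 10 genes. Diamonds are the brightest probe sets, circles the others, and open symbols did not pass the filter. Of the 14 circles of E2A-KO, 4 lie at -1 or lower.

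Across all 24 probe sets, 15 were lower on every E2A-KO than on every WT array, where 8.63% of the 45037 probe sets that are no controls had that order. The 15 include the brightest probe sets of all 10 genes, and the genes were chosen for this order. Nothing is therefore read from the 15 against that share. Among the 7 genes with more than 1 probe set, 2 (Sdc4 and Cdk19) had the order at all of them. Nearest inside the limit were an Arpp21 probe set with a gap of 0.35 and the second of Sdc4 with 0.55. Just outside it were a Nabp1 probe set with -0.07 and an Arpp21 probe set with -0.30. Where all probe sets of a gene were averaged, the E2A-KO difference from WT shrank to -0.34 for Nabp1, -1.01 for Rab11fip5, -1.26 for Sqor, -1.30 for Fgf13 and -2.15 for Arpp21.

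The comparison of E2A-KO with HEB-KO cells asked whether the low levels went with loss of one E protein rather than the other. At the brightest probe sets all 10 genes were lower on every E2A-KO array than on both HEB-KO arrays, an order seen for 21.6% of tested genes. The E2A-KO arrays are those that chose the genes, so neither this count nor its test is independent of the choice. Of the 10 genes, 6 passed the test as lower in E2A-KO cells (limma on all 8 arrays, Benjamini-Hochberg adjusted over all tested genes), when 0.100% of the tested genes were called lower. They were AA467197, with a log2 difference of -3.45 (SE 0.45), Sqor with -2.37 (SE 0.31), Nabp1 with -1.90 (SE 0.25), Arhgef3 with -1.69 (SE 0.22) and Cdk19 with -1.51 (SE 0.20), each at a limma adjusted p = 0.0372, and Arpp21 with -3.69 (SE 0.51, adjusted p = 0.0459). Not called were Fbp1 with -3.33 (SE 0.53, limma adjusted p = 0.0732), Fgf13 with -2.15 (SE 0.40, adjusted p = 0.0890), Rab11fip5 with -1.01 (SE 0.22, adjusted p = 0.121) and Sdc4 with -1.50 (SE 0.46, adjusted p = 0.193). The 10 differences had a median of -2.03, against -0.16 for all tested genes.

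The calls changed when single arrays were left out, while the differences stayed in one direction. None of the 10 genes was called when WT 1, WT 2, HEB-KO 1, HEB-KO 2, E2A-KO 1 or E2A-KO 2 was left out. The WT arrays enter this comparison through the shared estimate of spread alone, so without one of them each difference was as before. Without E2A-KO 4 the genes called were Arpp21 and Fbp1, and without E2A-KO 3 they were Sqor, Cdk19, Arhgef3 and Nabp1. With 1 array left out, the difference of Cdk19 lay between -1.57 and -1.44, and that of AA467197 between -4.16 and -2.73. The count was 0 as well with the hybridization control signal as a covariate, with only the compared genotypes fitted, and with every probe set tested on its own. The direction did not turn for any of the 10 genes under any of the 20 alternatives, though several of these cannot change a difference.

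**Figure D3:**
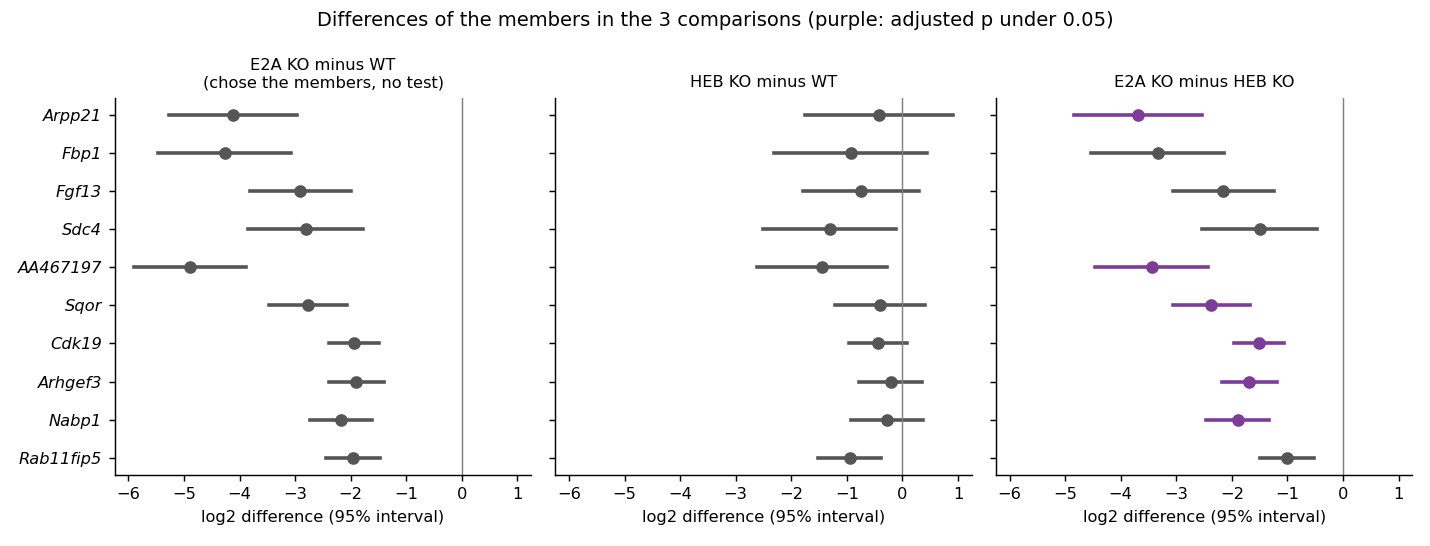
Log2 difference (horizontal axis) of each gene with its 95% interval in E2A-KO minus WT, HEB-KO minus WT and E2A-KO minus HEB-KO. Purple marks an adjusted p under 0.05, which 6 genes reach in the right panel and none in the middle one. The left panel shows the comparison that chose the genes and has no test, and its intervals take no account of that choice.

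The comparison of HEB-KO with WT cells asked whether these genes also respond to loss of HEB. All 10 HEB-KO means lay below the WT mean, with differences from -0.21 for Arhgef3 to -1.45 for AA467197, and their median difference was -0.59, against 0.09 for all tested genes. Both HEB-KO arrays were below both WT arrays for 7 of the 10 genes, an order seen for 11.4% of tested genes. The reverse order was seen for 0 of the 10 and 23.4% of tested genes. The WT arrays were part of the choice, so these differences and counts are not independent of it.

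No member passed the test, and neither did any other gene (limma, 0 of 11957 called, 0%), while 312 genes had an unadjusted p under 0.05 and the smallest adjusted p was 0.328. Rab11fip5 differed by -0.95 (95% interval -1.52 to -0.38), AA467197 by -1.45 (-2.62 to -0.28) and Sdc4 by -1.31 (-2.51 to -0.11). These 3 intervals exclude 0 one by one, but they use the WT arrays that were part of the choice and are not independent of it. The other 7 intervals include 0. That of Arhgef3 reached from -0.78 to 0.36, that of Nabp1 from -0.92 to 0.37, and that of Arpp21 from -1.76 to 0.91, so these arrays leave room for either sign in HEB-KO cells. The sign for Arpp21 turned to 0.12 without HEB-KO 2, and that for Sqor to 0.0042 without HEB-KO 1.

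In E2A-KO cells against WT, the brightest probe sets differed by -1.90 (Arhgef3) to -4.89 (AA467197), with a median of -2.79, against -0.05 for all tested genes. The whole table had 47 genes called lower in that comparison (0.393%). The comparison chose the 10 genes, so nothing is read from that share. Leaving out WT 2, which cut the calls of the whole table from 53 in either direction to 2, left the differences of the 10 genes between -4.65 and -1.92.

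The 4 E2A-KO arrays did not order the 10 genes in one way. E2A-KO 2 was the lowest of the 4 for 6 genes and E2A-KO 1 the highest for 5. E2A-KO 4 was the lowest for Arpp21 (3.84) and yet the highest for Fbp1 (6.16), Sdc4 (5.75) and AA467197 (3.85). By the root mean square distance between log2 profiles over the 8 arrays, each centred on its mean, the closest pair was Arhgef3 and Cdk19 (0.17) and the farthest AA467197 and Rab11fip5 (1.47). AA467197 lay nearer to Fbp1 (0.46) than to its neighbour Sqor (1.09). A distance of this kind grows with the size of the differences and is given as a description.

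The genes closest to the mean profile of the 10 were Gimap8 (distance 0.27), Fam167a (0.31), Foxo1 (0.40), Notch1 (0.41) and Il7r (0.42). Closest to Arpp21 were Emp1 (0.64), Tcf3 itself (0.67) and Tmprss3 (0.72). Those closest to Fbp1 were Ccr9 (0.75), Blnk (0.81) and Tcf3 (0.86), and those closest to Fgf13 were Slc27a2 (0.31), Fam167a (0.37) and Gimap8 (0.39). All distances span the same 8 arrays, and predicted genes (named Gm or Rik) were skipped in these rankings.

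Some features of the arrays moved with the genotypes. The mean log2 level of the 10 genes was 5.30, 4.84, 4.997 and 5.19 on E2A-KO arrays, 7.49 and 7.19 on HEB-KO arrays, and 7.97 and 8.14 on WT arrays. Ly6d, in the same order of arrays, read 6.75, 4.48, 4.26 and 6.88 in E2A-KO, 7.52 and 3.63 in HEB-KO, and 3.53 and 7.83 in WT cells. E2A-KO 1 and 4, HEB-KO 1 and WT 2 had more Ly6d than the other arrays of their genotype, and also the higher means of the 10 genes. Gene by gene this order was not general: WT 2 was above WT 1 for 7 of the 10, and HEB-KO 1 above HEB-KO 2 for 5. The mean of 7 B-lineage markers was 4.66 to 4.73 on E2A-KO arrays, 5.99 and 5.21 on HEB-KO arrays, and 5.20 and 6.58 on WT arrays. These markers did not move alike. Ebf1 read 2.32 to 3.06 on E2A-KO arrays against 4.36 and 6.90 on WT arrays, and Blnk 4.69 to 6.97 against 9.36 and 9.52. Pax5 was above both WT arrays, at 3.81 to 4.12 against 3.54 and 3.77. Cd79a, Cd79b, Vpreb1 and Igll1 overlapped the WT arrays. The part of Ly6d and of these markers in the result was not tested.

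Neutrophil granule markers (8 of 8 on the array) averaged 4.60 to 7.17 on E2A-KO arrays, highest on E2A-KO 3, against 6.88 and 8.39 on HEB-KO arrays and 4.61 and 5.97 on WT arrays. Monocyte markers (5 of 6 on the array) averaged 5.74 to 6.17 on E2A-KO arrays, 6.12 and 6.26 on HEB-KO arrays, and 6.19 and 5.87 on WT arrays. This mean hides opposite differences. On every E2A-KO array Csf1r (7.56 to 8.10 against 9.58 and 8.84) and Lyz2 (5.29 to 6.56 against 7.53 and 7.36) were below both WT arrays. Ccr2 (5.21 to 6.23 against 5.05 and 4.88), Cd68 (5.56 to 6.88 against 5.14 and 4.37) and Fcgr1 (3.93 to 4.26 against 3.65 and 3.92) were above both. Plasmacytoid dendritic markers (6 of 6) averaged 6.80 to 7.84 on E2A-KO arrays, 8.58 and 8.11 on HEB-KO arrays, and 8.25 and 8.75 on WT arrays. Among them, only Ccr9 (2.74 to 4.06 against 8.63 and 9.19) and Cox6a2 (6.55 to 7.43 against 8.45 and 9.18) were below both WT arrays on every E2A-KO array. Siglech (4.81 to 6.95 against 4.54 and 5.31), Bst2, Tcf4 and Irf8 overlapped the WT arrays. T and NK markers (6 of 8 on the array) averaged 4.88 to 5.05 on E2A-KO arrays, 4.95 on both HEB-KO arrays, and 4.74 and 4.89 on WT arrays. Cd3d and Cd3g were under the filter, while Thy1 read 4.59 to 6.26 on E2A-KO arrays, 5.31 and 5.26 on HEB-KO arrays, and 4.47 and 4.60 on WT arrays. Erythroid markers (4 of 6) averaged 3.69 to 5.38 on E2A-KO arrays, 4.45 and 4.97 on HEB-KO arrays, and 5.03 and 4.39 on WT arrays. Hba-a1 and Alas2 were under the filter. Klf1 read 7.81 on E2A-KO 1 and 3.81 to 5.35 on the other 7 arrays, and Car2 read 4.80 to 7.80 on E2A-KO arrays, 7.23 and 8.16 on HEB-KO arrays, and 8.31 and 7.30 on WT arrays. The spiked hybridization controls read 11.52 to 12.62 on E2A-KO arrays, 10.32 and 11.60 on HEB-KO arrays, and 11.40 and 10.29 on WT arrays. With that signal as a covariate the differences of the 10 genes between E2A-KO and WT lay between -4.41 and -1.74, that of Arpp21 at -3.22, and 1 gene of the whole table was called in place of 53. The 3′ minus 5′ signal of the actin control, a sign of RNA quality and amplification, was 3.86 to 4.78 on E2A-KO arrays, 3.37 and 3.58 on HEB-KO arrays, and 4.45 and 3.84 on WT arrays (log2). That of the Gapdh control was 5.38 to 5.97 on E2A-KO arrays, 4.67 and 5.14 on HEB-KO arrays, and 6.03 and 4.998 on WT arrays. On both measures all 4 E2A-KO arrays lay above both HEB-KO arrays. The part of these features in the results was not tested.

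The pathways of 9 of the 10 genes were examined through 8 lists with 124 genes in all, of which 100 were tested. In each of the 3 comparisons 0 of the 100 were called in either direction (limma). At an unadjusted p under 0.05 there were 11 in E2A-KO against WT (13.4% of all tested genes had such a p), 2 in HEB-KO against WT (2.61% of all) and 15 in E2A-KO against HEB-KO cells (16.5% of all). The median difference between E2A-KO and WT over the 100 was 0.02. The medians of these 8 lists lay between -0.13 (12 genes of Rab11 recycling) and 0.34 (6 genes of FGF homologous factors and FGF receptors). With so few arrays, absence of a call does not show an unchanged level.

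Among 19 genes of glycolysis and gluconeogenesis beside Fbp1, 8 differences between E2A-KO and WT were negative and 11 positive (median 0.09). The hexokinase gene Hk1 differed most (-1.39, limma adjusted p = 0.0994) and the mitochondrial enzyme gene Pck2 next (-0.71, adjusted p = 0.351). The 16 tested genes of sulfide oxidation and cytochrome oxidase had a median of 0.03 and lay between -0.50 (Suox, sulfite oxidase) and 0.19. In the list of syndecans and heparan sulfate synthesis (18 tested, median -0.01), Sdc1 differed by 1.12 (limma adjusted p = 0.0890), opposite in sign to Sdc4, and the glycosyltransferase gene Extl2 by -1.27 (adjusted p = 0.112).

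For Arpp21, 11 genes of cAMP kinase and calmodulin had a median of 0.13, with the kinase subunits Prkar2a at 1.35 (limma adjusted p = 0.278) and Prkar1a at -0.68 (adjusted p = 0.479). The 6 tested FGF-related genes all had positive differences, with the receptors Fgfr2 at 0.88 (limma adjusted p = 0.215) and Fgfr3 at 0.50 (adjusted p = 0.354). In the Mediator kinase module (6 tested, median -0.06) the leading values were -0.68 for Med12 (limma adjusted p = 0.255) and -0.53 for Med13l (adjusted p = 0.378). The 12 genes of single-stranded DNA binding had a median of -0.08, with the helicase gene Blm at 0.49 (limma adjusted p = 0.417) and the kinase gene Atm at -0.39 (adjusted p = 0.604). The 12 genes of Rab11 recycling had a median of -0.13, with Ehd4 at -1.22 (limma adjusted p = 0.308) and the motor gene Myo5a at -0.78 (adjusted p = 0.375).

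Relatives of 7 of the 10 genes could be tested. Between E2A-KO and WT, Cdk8 differed by -0.13, Nabp2 by 0.01, Ndufa4 by -0.19, R3hdm1 by -0.18, Fgf11 by 0.22, Rab11fip2 by 0.29 and Sdc2 by 0.78, and none passed the test (limma, adjusted p of 0.488 or more). Fbp2, Fgf12, Fgf14, Net1 and Rab11fip1 were too dim to be tested. That a relative differed less than its member was not tested as such.

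**Figure D4:**
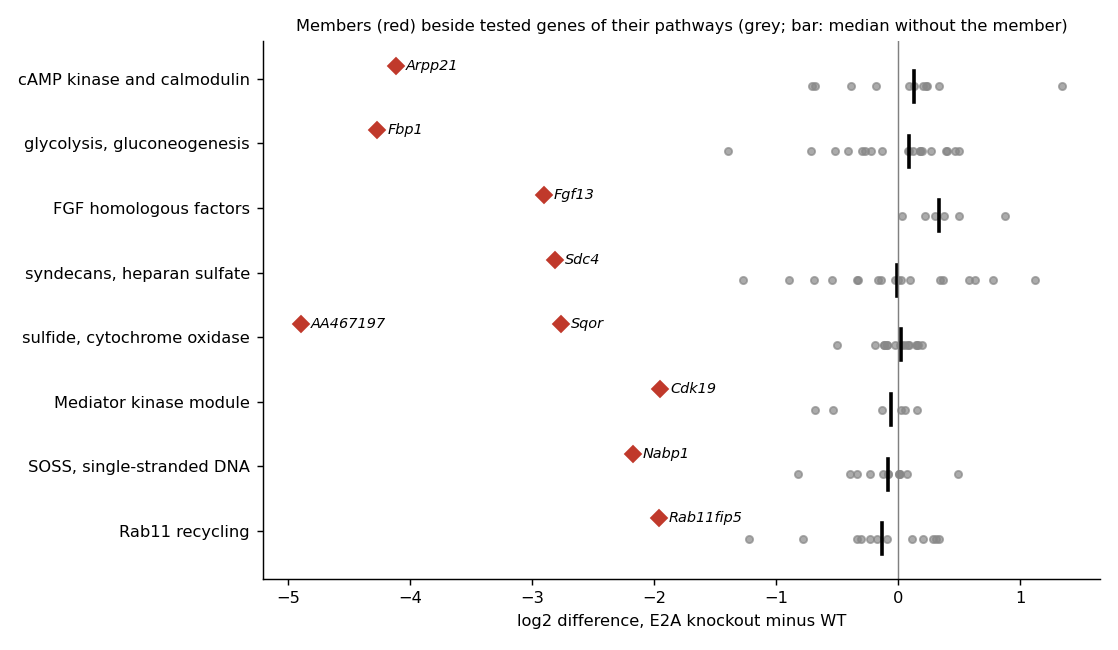
Log2 difference between E2A-KO and WT (horizontal axis) of 9 of the 10 genes (red diamonds, Arhgef3 not shown) and of the tested genes in the list of each one's pathway (grey points, with a bar at the list's median). The grey points centre near 0, from -1.39 for Hk1 to 1.35 for Prkar2a, and none was called.

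The 2 nearest tested genes on either side of each of the 10 made 38 genes, counting shared ones once. Of these, 0 were called in E2A-KO against WT cells (limma), and their median difference was -0.15. Spata5l1, next to AA467197, was lowest at -1.34 (limma adjusted p = 0.339), and Stat4, a signal transducer gene next to Nabp1, stood at -1.23 (adjusted p = 0.105). The highest was Sfxn5, next to Rab11fip5, at 0.44 (limma adjusted p = 0.410). Cdk19 shares chromosome 10 with the targeted Tcf3, 39.9 Mb away, and Arpp21 shares chromosome 9 with Tcf12, 40.0 Mb away.

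Of the 10 genes, 4 hold a miRNA within their bounds and on their own strand (RefSeq, GRCm38.p6), against 3.81% of 11937 placed tested genes, counted on either strand. Long genes hold more, and Arpp21 and Fgf13 span 171.20 and 523.43 kb. The arrays did not measure these miRNAs, and their sequences are shown as what else lies on the transcribed strand of these genes, with the seed (bases 2 to 8) in capitals. The 4 seeds differ from each other.
mmu-miR-128-3p in Arpp21: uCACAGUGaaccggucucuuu
mmu-miR-504-5p in Fgf13: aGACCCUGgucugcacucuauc
mmu-miR-147-5p in AA467197: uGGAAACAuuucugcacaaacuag
mmu-miR-705 in Rab11fip5: gGUGGGAGguggggugggca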

How the data were processed

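The deposited intensity values, 1 for each of 45101 probe sets on 8 arrays, were made by the authors with RMA, per the submitters' processing notes. Neither a version of RMA nor a chip definition is named there. The intensity values ran on a linear scale, so they were put on the log2 scale without further normalization. Per the labels, cells were lysed on sorting and RNA was prepared with RNeasy Micro columns. Probe sets were named through the platform annotation, with symbols updated by gene ID for 18033 genes: 34945 named 1 gene, 932 several and 9160 none. A gene was read at its brightest probe set (highest mean over the 8 arrays) and tested if that probe set lay above the array median on at least 2 arrays. This left out 6236 of 18193 genes. A limma model (3.58.1, R 4.3.3) took 1 mean per genotype over all 8 arrays (5 residual degrees of freedom) and was tested two-sided with a Benjamini-Hochberg threshold of 0.05. The script was tested on simulated data. The members, lists and tests were chosen with earlier results of these data known. A further list is not reported here. Named genes were the 10 members, their relatives, the 2 genes of each reported list with the smallest p, the nearest tested neighbours, and the genes of most similar profile. Alternatives were another filter, scaling, probe-set summary, moderation, array weights, a subset of genotypes, a replicate block, a hybridization-control covariate and left-out arrays. No array was left out of the reported values, and depth does not apply to arrays, whose number limits precision.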

Additional observations from a re-analysis of the deposited data

Results flagged for a closer look

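In groups of 4 arrays, 1 of the 24 probe sets of the 10 genes had an array that stood apart by Dixon's criterion, which chance gives for about 1 in 20 groups. It was a dim Arpp21 probe set, under the filter, that read 3.46 on E2A-KO 3, against 3.01 to 3.08 on the other E2A-KO arrays. At the brightest probe sets 0 of 10 met the criterion. The nearest were Fbp1, where E2A-KO 4 read 6.16 and the next array 4.50, and Arpp21, where E2A-KO 4 read 3.84 and the next array 5.35.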

How the results depend on the processing

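The order of arrays held for 15 of 24 probe sets and for 15 or 16 under other scalings or with an array left out. Leaving an array out can only keep or raise this count, so those settings do not test it. Over 20 alternatives for each of the 10 genes, 192 of 200 differences between E2A-KO and WT moved by less than 1 SD and 8 moved more, and none reversed. Part of this was fixed in advance. Another filter or moderation, probe sets tested on their own, only the compared genotypes, or a left-out HEB-KO array cannot change these differences. Likewise, leaving out an array of the genotype not compared cannot change the other differences. Of 200 between HEB-KO and WT, 3 reversed: Arpp21 (-0.97 to 0.12 with 1 array left out, reversed without HEB-KO 2) and Sqor (-0.80 to 0.0042, reversed without HEB-KO 1, and 0.36 without both WT 2 and HEB-KO 1). Of 200 between E2A-KO and HEB-KO, 112 kept their side of the threshold, 83 lost it and 5 gained it.

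The 6 members called lower against HEB-KO became 2 with cyclic loess, 2 with averaged probe sets, 0 with every probe set tested, 0 with only the compared genotypes, 0 with the hybridization covariate, 0 without both WT 2 and HEB-KO 1, and 0 to 4 with 1 array left out. They became 7 with trend and robust moderation, 8 with array weights and 4 with no filter, and numbered 6 with the stricter filter or median centring. Over all genes, the 53 called in E2A-KO against WT became 91 with trend and robust moderation, 120 with array weights, 26 with only the compared genotypes, 1 with the hybridization covariate, 0 without both WT 2 and HEB-KO 1, and 2 (without WT 2) to 104 (without E2A-KO 3) with 1 array left out. The 14 called in E2A-KO against HEB-KO became 42, 91, 6, 1 and 0 under the same first 5 settings, 1 with every probe set tested, and 1 to 21 with 1 array left out. The cause was not tested, beyond fewer arrays or more tests where the setting makes them. Of the pathway genes, 1 (Sdc1) was called in E2A-KO against WT with trend and robust moderation and 0 under the other alternatives run for these genes.

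Deviations of same-numbered arrays from their genotype means correlated at -0.28 to 0.15. With 2 arrays in HEB-KO and in WT, the deviations within a genotype mirror each other, so this check cannot exclude a pairing by number. A replicate block on arrays 1 and 2 of each genotype called 12 genes in E2A-KO against WT (59 on these arrays without it) and 3 in E2A-KO against HEB-KO (3 without it), with 1 member called lower (1 without it). Within HEB-KO and WT a crossed pairing, added after seeing the data with the fit without the block, called 0 genes and the pairing as numbered 1.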
